A study of Homo sapiens with 36 samples.

Results

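Among the mRNAs of Caco-2 and HT-29 cells, 10 genes of fat storage and fat burning were followed: PLIN2 and PLIN3, which coat lipid droplets, HILPDA and PNPLA2, which set the rate of triglyceride breakdown, DGAT1, which makes triglyceride, CPT1A and CPT2 of the carnitine shuttle, and ACADVL, ACADM and HADHA of mitochondrial beta-oxidation. They were found by symbol, and each matched 1 of the 60591 rows of the gene count table. All 10 passed the filter on low counts in both lines, with 85 to 9139 reads of a member in a library.

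Both lines are established human colorectal adenocarcinoma lines. Caco-2 cells had been kept under differentiating conditions for 21 days, and no such period is given for HT-29 cells. Line and culture state therefore cannot be told apart in any comparison between the lines. Each line was studied in 3 groups of 3 replicates. Control cells received DMSO, at 0.5 µl per ml of medium. CoCl2 cells received 300 µM cobalt chloride for 24 h from a stock in water; the labels and the methods of the study differ on whether and how much DMSO was added to them. OD cells received 5 µM of an oxyquinoline derivative for 24 h, in 0.5 µl of DMSO per ml. CoCl2 and OD are both used to switch on the hypoxia-inducible factor (HIF) pathway without lowering oxygen, each was given at 1 dose and 1 time, and the doses of the 2 agents differ. A single line in a single state was treated in each case, so n = 3 counts samples of that line. The replicates are stated to be biological for Caco-2, and for HT-29 nothing says that they came from separate cultures. The HT-29 p-values therefore weigh a difference against the spread between these samples, which may be technical.

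The 18 libraries held 12925719 to 22332639 counted reads. The epithelial identity of the cells was checked with 8 markers: 7 were above 10 counts in the Caco-2 groups (CDX1 lay at 0 to 2 counts in each library), and 7 or 8 in the HT-29 groups, with a summed level of 5220 to 7110 CPM in Caco-2 and 5040 to 7580 CPM in HT-29. In Caco-2 the sum rose from 5220 to 5310 CPM in control to 6510 to 7110 under CoCl2 and 6240 to 6350 under OD. In HT-29 it went from 6110 to 6140 CPM to 5040 to 5350 and 7120 to 7580 CPM in the same order. KRT8 and CDH1 make up much of that sum, and single markers moved apart from it. VIL1, the microvillus protein villin, fell with CoCl2 from a mean of 205 to 33.6 CPM in HT-29 (log2 fold change -2.62) and from 796 to 443 CPM in Caco-2 (-0.85). OD lowered it in HT-29 as well (-1.15). CDX1 fell with CoCl2 in HT-29 too (-2.43) and rose with OD there (0.69). KRT20 rose in all 4 comparisons (0.72 and 1.49 for CoCl2 and OD in Caco-2, 1.23 and 1.39 in HT-29). In Caco-2 6 of the 7 markers tested rose and 1 fell with CoCl2, and 5 rose and 0 fell with OD. In HT-29 5 of 8 rose and 3 fell with CoCl2, and 5 rose and 2 fell with OD. The shares of all genes are given below. The part of these shifts in the results was not tested. The 12 markers of immune, stromal, endothelial and fat cells summed to 21.3 to 50.4 CPM in Caco-2 and 2.42 to 11 CPM in HT-29, and the fat cell markers ADIPOQ, FABP4 and LEP, the immune marker PTPRC and the stromal marker COL1A2 lay at 0 to 2 counts in each library. COL1A1, at 202 to 405 counts in Caco-2 and 23 to 116 in HT-29, was among the most abundant. The sum of the 12 moved with treatment without overlap in both lines, in Caco-2 from 42.6 to 50.4 CPM in control to 21.3 to 23.2 CPM under CoCl2 and 24.4 to 30.9 CPM under OD, and in HT-29 from 5.45 to 7.04 CPM to 2.42 to 3.17 and 8.76 to 11 CPM. COL1A1 rose with OD in HT-29 (2.01). The part of this sum in the results was not tested. Reads of the mitochondrial genome made up a mean of 6.52%, 5.22% and 4.63% of counts in control, CoCl2 and OD Caco-2 cells and 7.17%, 8.09% and 6.13% in HT-29, and their part in the results was not tested either. Hypoxia marker genes rose in all 4 treatment comparisons, 7 of 7 tested under each agent in Caco-2, 8 of 8 under CoCl2 in HT-29 and 6 of 8 under OD in HT-29, with a median log2 fold change of 3.08, 1.83, 3.44 and 0.72 in that order.

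A lipid droplet is a core of triglyceride and sterol ester inside a single phospholipid layer that carries coat proteins of the perilipin family. PNPLA2 (adipose triglyceride lipase) takes the first fatty acid off the stored triglyceride, HILPDA and G0S2 are small proteins that inhibit it, and ABHD5 activates it. Fatty acids that are to be burned are bound to carnitine by CPT1A on the outer mitochondrial membrane. Carried across the inner membrane and released again by CPT2, they are shortened in cycles that begin with a chain-length-specific acyl-CoA dehydrogenase. For long chains the cycle ends on the trifunctional protein, of which HADHA is the alpha subunit. Enterocytes pass dietary fat through lipid droplets on its way to secretion. PLIN2 and HILPDA are known to respond to hypoxia in many cell types.

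Because both agents act on a transcription factor pathway, the stretch before the start site was read for 8 of the 10 members (GRCh38.p14). It was not read for HILPDA and DGAT1. The 5-base cores ACGTG and GCGTG, the 2 forms of the hypoxia response element, were searched on both strands, that is also as CACGT and CACGC, in the 250 bases before each start. Either core was present in 43.2% of all 35116 such windows, ACGTG in 18.5% and GCGTG in 32.2%. The windows of 3 members are shown because they carry the contrasts described below: the 2 coat genes, whose responses differed between the lines, and ACADM, an oxidation gene that fell in all 4 treatment comparisons. Capitals mark the cores. Each start is that of a RefSeq entry. By the GENCODE v44 spans given below, the PLIN2 and ACADM windows lie inside the span of the gene, as does the ACADVL window with hits. PLIN2 lies at chr9:19127493-19127742 on the minus strand, PLIN3 at chr19:4867668-4867917 on the minus strand and ACADM at chr1:75724459-75724708 on the plus strand, each printed 5′ to 3′ along the gene.
PLIN2: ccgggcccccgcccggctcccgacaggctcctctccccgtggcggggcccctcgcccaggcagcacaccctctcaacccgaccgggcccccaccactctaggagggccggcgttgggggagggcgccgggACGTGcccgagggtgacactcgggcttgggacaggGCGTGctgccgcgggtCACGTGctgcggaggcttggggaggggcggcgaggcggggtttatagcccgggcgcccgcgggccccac
PLIN3: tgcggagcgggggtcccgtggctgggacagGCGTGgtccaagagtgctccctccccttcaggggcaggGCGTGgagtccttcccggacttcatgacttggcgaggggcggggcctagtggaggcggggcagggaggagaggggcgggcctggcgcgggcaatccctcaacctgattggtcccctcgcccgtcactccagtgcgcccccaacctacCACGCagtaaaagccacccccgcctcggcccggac
ACADM: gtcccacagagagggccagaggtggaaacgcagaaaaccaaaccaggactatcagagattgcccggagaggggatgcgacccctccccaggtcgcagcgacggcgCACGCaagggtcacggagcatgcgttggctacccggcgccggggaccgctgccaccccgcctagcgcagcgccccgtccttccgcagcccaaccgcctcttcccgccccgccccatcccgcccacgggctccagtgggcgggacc

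The PLIN2 window held 4 hits, of which 3 were ACGTG and 1 was GCGTG. A pair of these, 69 and 68 bases before the start, are the same palindrome CACGTG read on either strand, and the others began 120 and 85 bases before it. Windows with 4 or more hits made up 3.22% of all windows. The PLIN3 window held 3 hits of GCGTG and no ACGTG, and the ACADM window held 1 hit of GCGTG. Of the members not shown, 1 of the 2 ACADVL windows held 1 hit of each core and the other held none, and the windows of PNPLA2, CPT1A, CPT2 and HADHA held none. These matches describe letters in a window and not binding, which was not measured.

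Levels were compared between genes per transcript length, as RPKM taken back from the deposited log2 values. In control Caco-2 cells HADHA was the highest member at 99.9 ± 3.52 RPKM (SD, n = 3), followed by DGAT1 at 42.2 ± 2.03, ACADVL at 34.8 ± 1.24, PLIN3 at 20.7 ± 0.962 and PLIN2 at 14.8 ± 0.552. PNPLA2 at 11.2 ± 0.497 and ACADM at 10.4 ± 0.500 were neighbours whose libraries overlapped, and CPT1A at 7.55 ± 0.192, HILPDA at 5.01 ± 0.515 and CPT2 at 1.29 ± 0.0659 closed the order. In control HT-29 cells HADHA at 41.8 ± 1.43 and ACADVL at 40.4 ± 1.03 overlapped at the top. PNPLA2 followed at 31.4 ± 0.844 RPKM and CPT1A at 16.8 ± 0.257. ACADM at 9.64 ± 0.277 and DGAT1 at 9.28 ± 0.460 overlapped, as did PLIN3 at 8.06 ± 0.488 and HILPDA at 7.57 ± 0.763. PLIN2 at 2.87 ± 0.309 and CPT2 at 1.82 ± 0.15 RPKM were lowest. RPKM values of the lines were scaled apart, so the order holds within a line.

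**Figure D1:**
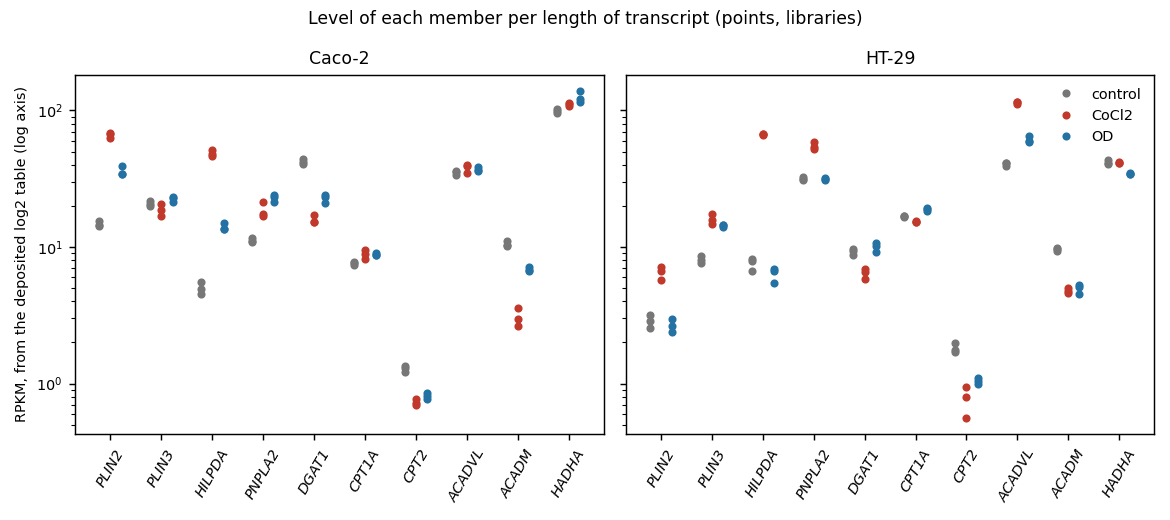
RPKM of each member (y, log axis) in the 3 control, 3 CoCl2 and 3 OD libraries of Caco-2 (left) and HT-29 (right), each point a library. HILPDA moves from 4.54 to 5.56 RPKM in control Caco-2 cells to 46.7 to 51.4 under CoCl2, and CPT2 is the lowest member in all 6 groups.

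Between the control groups of the lines, tested in 1 fit over the 18 libraries, 2 members were higher in HT-29 at an adjusted p under 0.05 and a log2 difference over 1, against 21.6% of the 17921 genes tested, and 4 were lower, against 24.2%. PLIN2 was 4.83-fold lower in HT-29 (log2 difference -2.27 ± 0.09, SE, adjusted p = 6.74e-22, edgeR), DGAT1 4.30-fold lower (-2.11 ± 0.07), PLIN3 2.44-fold lower (-1.29 ± 0.08) and HADHA 2.27-fold lower (-1.18 ± 0.06). PNPLA2 was 2.96-fold higher (1.57 ± 0.08) and CPT1A 2.34-fold higher (1.23 ± 0.06). HILPDA (0.66), CPT2 (0.57) and ACADVL (0.29) were also higher in HT-29 at an adjusted p under 0.05, and ACADM did not differ beyond its error (-0.04 ± 0.08, 95% interval -0.20 to 0.12).

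Fold changes below come from counts with TMM scaling, which sets the bulk of the genes to no change. Scaling by library size alone moved the median change over all genes, on the log2 scale, by -0.32 (CoCl2) and -0.15 (OD) in Caco-2, by -0.63 and -0.14 in HT-29, by -0.17 and -0.50 for CoCl2 against OD in Caco-2 and HT-29, and by -0.20 for the difference in CoCl2 response between lines. The log2 changes below are relative to that bulk, and a change smaller than the shift could turn its sign. In bulk RNA fewer cells of a type and less RNA per cell cannot be told apart.

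**Figure D2:**
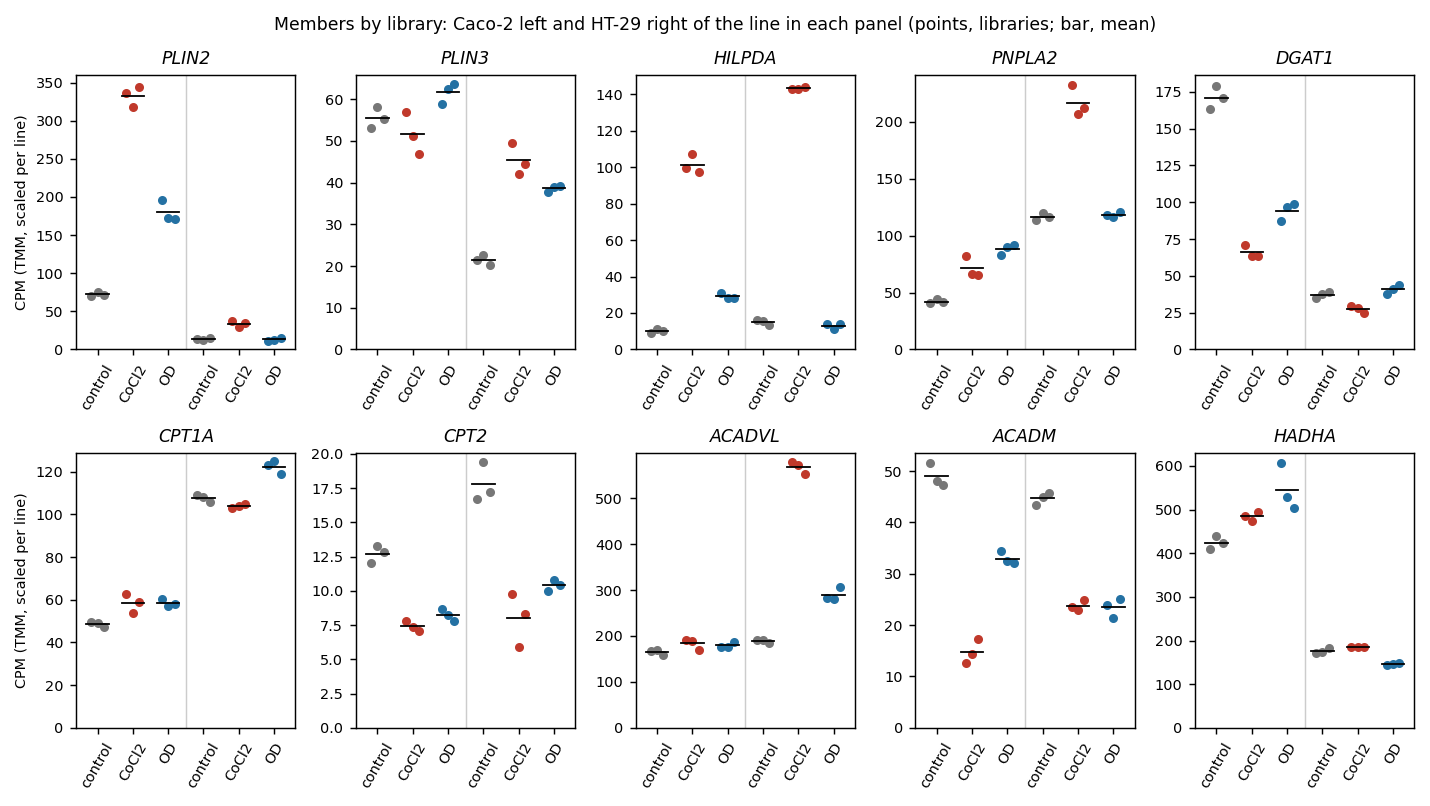
Level of each member in CPM (y, TMM-scaled within each line, from 0) in every library, grouped as control, CoCl2 and OD for Caco-2 and then HT-29; points are libraries and bars are means. HILPDA stands at 97.5 to 107 CPM under CoCl2 in Caco-2 and 143 to 144 CPM in HT-29, far above its controls, and ACADM is below its controls in all 4 treated groups.

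The coat genes came apart by line. PLIN2, the perilipin found on droplets in most cell types (chromosome 9, 19108375 to 19149290, minus strand, GENCODE v44), stood at 70.3, 75.5 and 71.6 CPM in control Caco-2 cells, at 336, 318 and 344 CPM under CoCl2 and at 196, 173 and 171 CPM under OD. Every treated library lay above every control library. PLIN2 rose 4.59-fold with CoCl2 (log2 fold change 2.20 ± 0.08, SE, adjusted p = 1.55e-17, edgeR) and 2.49-fold with OD (1.31 ± 0.08, adjusted p = 8.67e-13). In HT-29 cells PLIN2 stood at 13.9, 12.5 and 15.5 CPM in control, 36.7, 29.7 and 34.5 CPM under CoCl2 and 11.7, 13 and 14.8 CPM under OD. It rose 2.38-fold with CoCl2 (1.25 ± 0.09, adjusted p = 1.73e-12), whereas the OD libraries overlapped the controls (-0.10 ± 0.10, 95% interval -0.30 to 0.10, adjusted p = 0.413). With library size scaling the CoCl2 rise in HT-29 was 0.62. The response of PLIN2 was smaller in HT-29 than in Caco-2 to CoCl2 (difference in log2 fold change -1.05 ± 0.12, adjusted p = 7.00e-09) and to OD (-1.43 ± 0.13, adjusted p = 3.94e-11).

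PLIN3, a perilipin that also sits in the cytosol and moves to young droplets (chromosome 19, 4838341 to 4867694, minus strand), rose in HT-29 and not past the threshold in Caco-2. In Caco-2 it stood at 53.1, 58.2 and 55.3 CPM in control, 56.8, 51.1 and 46.9 CPM under CoCl2 and 58.7, 62.4 and 63.7 CPM under OD, and neither agent moved it past the threshold (-0.11 ± 0.09, adjusted p = 0.267, and 0.15 ± 0.08, adjusted p = 0.145, edgeR). Scaled by library size, its CoCl2 change in Caco-2 was -0.43, past the threshold. In HT-29 it went from 21.4, 22.7 and 20.2 CPM in control to 49.5, 42.0 and 44.4 CPM under CoCl2 and 37.8, 38.9 and 39.1 CPM under OD, with no overlap. It rose 2.12-fold with CoCl2 (1.09 ± 0.07, adjusted p = 5.70e-14) and 1.81-fold with OD (0.86 ± 0.07, adjusted p = 1.53e-11). Scaled by library size, PLIN3 rose by 0.45 with CoCl2 in HT-29. Its response was larger in HT-29 to CoCl2 (difference 1.09 ± 0.11, adjusted p = 5.00e-10) and to OD (0.69 ± 0.11, adjusted p = 3.93e-06).

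Within a library, the ratio of PLIN2 to PLIN3 counts does not depend on scaling. Its log2 went from 0.41, 0.37 and 0.37 in control Caco-2 cells to 2.56, 2.64 and 2.88 under CoCl2 and 1.74, 1.47 and 1.42 under OD. In HT-29 it lay at -0.61, -0.86 and -0.38 in control, -0.43, -0.50 and -0.36 under CoCl2 and -1.68, -1.58 and -1.40 under OD. The Caco-2 means differed from control by 2.31 (CoCl2) and 1.16 (OD), those of HT-29 by 0.19 and -0.94. The 3 against 3 libraries allow no exact permutation p below 0.1, which both agents in Caco-2 and OD in HT-29 reached (0.12 after adjustment over the 12 ratio tests), and CoCl2 in HT-29 overlapped its controls (p = 0.3).

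**Figure D3:**
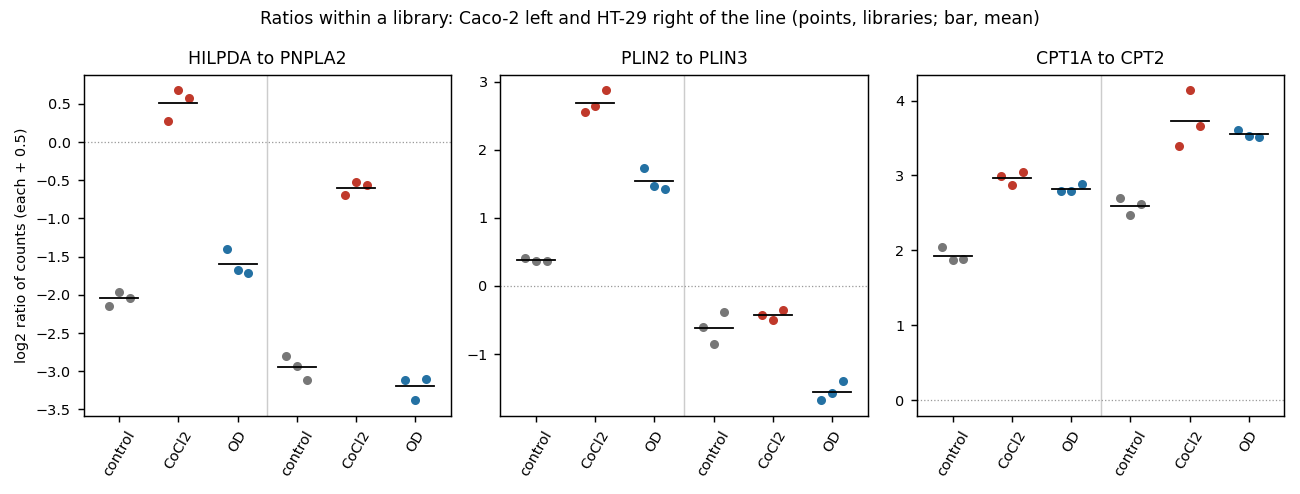
Log2 ratio of the counts of 2 members within each library (y; each count plus 0.5) for HILPDA to PNPLA2, PLIN2 to PLIN3 and CPT1A to CPT2, in control, CoCl2 and OD libraries of Caco-2 and then HT-29; points are libraries and bars are means. CPT1A to CPT2 is above its controls in all 4 treated groups, by 0.89 to 1.13.

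HILPDA (chromosome 7, 128455849 to 128458418, plus strand), the hypoxia-inducible inhibitor of PNPLA2, had the largest CoCl2 rise of the 10 members in both lines. It stood at 9.20, 11.3 and 10.0 CPM in control Caco-2 cells, 99.7, 107 and 97.5 CPM under CoCl2 and 31.2, 28.2 and 28.2 CPM under OD. HILPDA rose 10.0-fold with CoCl2 (3.32 ± 0.10, adjusted p = 8.05e-19, edgeR) and 2.88-fold with OD (1.53 ± 0.10, adjusted p = 1.27e-11). In HT-29 it stood at 16.4, 15.7 and 13.5 CPM in control, 143, 143 and 144 CPM under CoCl2 and 13.7, 11.1 and 14.1 CPM under OD. CoCl2 raised it 9.54-fold (3.25 ± 0.07, adjusted p = 2.14e-24), a response that did not differ from that of Caco-2 past the threshold (difference -0.18 ± 0.13, 95% interval -0.43 to 0.07, adjusted p = 0.246; past the threshold at -0.39 with library size scaling). Under OD in HT-29 HILPDA was 1.15-fold lower (-0.21 ± 0.09, adjusted p = 0.0388), a small fall whose libraries overlapped the controls and which was lost with no filter on low counts and on leaving out any of 4 libraries (control replicate 1 or 2, CoCl2 replicate 3, OD replicate 2; -0.30 to -0.11 over all 9). The OD response of HILPDA differed between the lines (-1.76 ± 0.14, adjusted p = 1.64e-12). HILPDA overlaps HILPDA-AS1 and another long non-coding RNA gene on the same strand, so reads there could be split between them.

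PNPLA2 (chromosome 11, 818914 to 825573, plus strand), the lipase that HILPDA inhibits, also rose, by less. In Caco-2 it went from 40.5, 44.1 and 41.4 CPM in control to 82.2, 66.7 and 65.2 CPM under CoCl2 and 82.6, 89.6 and 92.2 CPM under OD. The rise was 1.70-fold with CoCl2 (0.76 ± 0.09, adjusted p = 9.35e-08, edgeR) and 2.1-fold with OD (1.07 ± 0.09, adjusted p = 7.47e-10). In HT-29 it went from 114, 120 and 116 CPM in control to 232, 207 and 212 CPM under CoCl2 (1.86-fold, 0.89 ± 0.05, adjusted p = 4.07e-15) and stayed at 118, 116 and 121 CPM under OD (0.02 ± 0.05, 95% interval -0.08 to 0.12). Scaled by library size, PNPLA2 rose by 0.26 with CoCl2 in HT-29. Its OD response differed between the lines (-1.07 ± 0.10, adjusted p = 2.90e-10), its CoCl2 response did not past the threshold (0.03 ± 0.11, interval -0.18 to 0.23).

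The log2 ratio of HILPDA to PNPLA2 lay at -2.14, -1.96 and -2.04 in control Caco-2 cells and at 0.28, 0.68 and 0.58 under CoCl2, a difference of 2.56, and at -1.40, -1.67 and -1.71 under OD, a difference of 0.45. In HT-29 it lay at -2.80, -2.93 and -3.11 in control, -0.70, -0.53 and -0.56 under CoCl2 and -3.11, -3.38 and -3.10 under OD, with differences of 2.35 and -0.25. Both agents in Caco-2 and CoCl2 in HT-29 reached the smallest p of the exact permutation test (p = 0.1, adjusted 0.12) and OD in HT-29 did not (p = 0.2).

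DGAT1, which adds the last fatty acid to make triglyceride, fell in Caco-2 with both agents. It stood at 163, 179 and 171 CPM in control, 70.8, 63.3 and 63.6 CPM under CoCl2 and 87.2, 96.7 and 99.1 CPM under OD, falls of 2.60-fold (-1.38 ± 0.08, adjusted p = 2.10e-13, edgeR) and 1.81-fold (-0.86 ± 0.08, adjusted p = 2.37e-09). In HT-29 DGAT1 went from 35.2, 37.4 and 38.9 CPM in control to 29.3, 28.1 and 24.8 CPM under CoCl2 (1.36-fold lower, -0.44 ± 0.07, adjusted p = 3.18e-06). Under OD it stood at 37.7, 41.2 and 43.6 CPM (0.13 ± 0.07, adjusted p = 0.0838), a call gained on leaving out HT-29 control replicate 3 or OD replicate 1. The response differed between the lines for both agents (0.83 ± 0.11 for CoCl2 and 0.97 ± 0.10 for OD, adjusted p = 1.01e-07 and 2.29e-09). DGAT1 overlaps a long non-coding RNA gene and MIR6848 on the same strand and HSF1 on the opposite strand.

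Of the 2 carnitine palmitoyltransferases, CPT2 fell in all 4 comparisons. CPT2 (chromosome 1, 53196792 to 53214197, plus strand) went from 12, 13.3 and 12.8 CPM in control Caco-2 cells to 7.83, 7.34 and 7.09 CPM under CoCl2 and 8.68, 8.23 and 7.83 CPM under OD. In HT-29 it went from 16.7, 19.4 and 17.2 CPM to 9.78, 5.88 and 8.31 CPM under CoCl2 and 9.99, 10.8 and 10.4 CPM under OD. No treated library overlapped the controls in either line. CPT2 fell 1.72-fold and 1.54-fold in Caco-2 (-0.78 ± 0.13 and -0.62 ± 0.13, adjusted p = 1.77e-05 and 0.000342, edgeR) and 2.23-fold and 1.71-fold in HT-29 (-1.16 ± 0.12 and -0.77 ± 0.11, adjusted p = 1.46e-09 and 5.42e-07), for CoCl2 and OD in that order. CPT2 overlaps CZIB and a long non-coding RNA gene on the opposite strand.

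CPT1A (chromosome 11, 68754620 to 68844410, minus strand), the step that sets entry of long-chain fatty acids, rose slightly in 3 of the 4 comparisons. It stood at 49.7, 49.0 and 47.4 CPM in control Caco-2 cells, 62.6, 53.8 and 59.1 CPM under CoCl2 and 60.3, 57.2 and 58.0 CPM under OD. It rose 1.20-fold with each agent, by 0.26 ± 0.08 with CoCl2 (adjusted p = 0.00652, edgeR; -0.06 with library size scaling) and by 0.27 ± 0.08 with OD (adjusted p = 0.00878; 0.11 and no longer past the threshold with library size scaling). In HT-29 CPT1A stood at 109, 108 and 106 CPM in control and at 103, 104 and 105 CPM under CoCl2 (-0.04 ± 0.05, adjusted p = 0.411, edgeR). A fall passed the threshold with library size scaling (-0.68) and with limma on the log2 values (-0.13, adjusted p = 0.00687). It also passed with both lines in 1 edgeR fit (-0.15, adjusted p = 0.0268). Under OD CPT1A stood at 123, 125 and 119 CPM, a 1.14-fold rise (0.19 ± 0.05, adjusted p = 0.000853, edgeR). With library size scaling this rise was 0.05 and not past the threshold. The log2 ratio of CPT1A to CPT2, which scaling does not touch, went from a mean of 1.93 in control Caco-2 cells to 2.97 under CoCl2 and 2.82 under OD, and from 2.60 in HT-29 to 3.73 and 3.55. All 4 differences, of 1.04, 0.89, 1.13 and 0.95, had no overlap between libraries and the smallest exact permutation p of 0.1, adjusted to 0.12.

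ACADM (chromosome 1, 75724431 to 75787575, plus strand), the medium-chain acyl-CoA dehydrogenase, was with CPT2 the member that fell in all 4 comparisons. It stood at 51.6, 48.1 and 47.2 CPM in control Caco-2 cells, 12.6, 14.3 and 17.2 CPM under CoCl2 and 34.4, 32.5 and 32 CPM under OD. It fell 3.3-fold with CoCl2, the largest fall of a member (-1.72 ± 0.11, adjusted p = 8.16e-13, edgeR), and 1.49-fold with OD (-0.57 ± 0.10, adjusted p = 3.77e-05). In HT-29 it went from 43.3, 45.0 and 45.8 CPM in control to 23.6, 23.0 and 24.8 CPM under CoCl2 and 24.0, 21.4 and 25 CPM under OD. These were falls of 1.89-fold (-0.92 ± 0.07, adjusted p = 1.32e-12) and 1.91-fold (-0.93 ± 0.06, adjusted p = 9.29e-13). The CoCl2 fall was smaller in HT-29 than in Caco-2 (difference 0.70 ± 0.13, adjusted p = 2.01e-05) and the OD fall was larger (-0.38 ± 0.12, adjusted p = 0.00932). The 3′ end of ACADM overlaps RABGGTB on the same strand.

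ACADVL (chromosome 17, 7217125 to 7225266, plus strand), the very-long-chain acyl-CoA dehydrogenase, went the other way in HT-29. It stood at 192, 192 and 184 CPM in control HT-29 cells, 578, 573 and 553 CPM under CoCl2 and 283, 281 and 307 CPM under OD. ACADVL rose 3.01-fold with CoCl2 (1.59 ± 0.05, adjusted p = 2.65e-21, edgeR) and 1.54-fold with OD (0.62 ± 0.05, adjusted p = 5.13e-12). Scaled by library size, ACADVL rose by 0.95 with CoCl2 in HT-29. In Caco-2 it stood at 167, 169 and 158 CPM in control, 192, 190 and 169 CPM under CoCl2 and 177, 175 and 186 CPM under OD. Neither comparison passed (0.16 ± 0.07, adjusted p = 0.061, and 0.12 ± 0.07, adjusted p = 0.159), though the first passed without Caco-2 CoCl2 replicate 3 or OD replicate 1 (0.13 to 0.22 over all 9 libraries left out). It also passed with DESeq2 (0.17, adjusted p = 0.0343), with edgeR on DESeq2 scaling (0.17, adjusted p = 0.0409) and with both lines in 1 edgeR fit (0.16, adjusted p = 0.0252), and stood at -0.16 with library size scaling. Its response was larger in HT-29 to CoCl2 (difference 1.32 ± 0.09, adjusted p = 9.29e-15) and to OD (0.48 ± 0.09, adjusted p = 2.21e-05). ACADVL overlaps DLG4 on the opposite strand at its 5′ end.

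HADHA (chromosome 2, 26190635 to 26244672, minus strand) showed small changes. It stood at 409, 439 and 424 CPM in control Caco-2 cells, 486, 473 and 494 CPM under CoCl2 and 607, 528 and 503 CPM under OD. It rose 1.29-fold with OD (0.36 ± 0.08, adjusted p = 0.000301, edgeR). With CoCl2 it rose 1.14-fold (0.19 ± 0.08, adjusted p = 0.029), but stood at -0.13 with library size scaling, and the call was lost with limma (0.15) and without control replicate 1 or 3 or CoCl2 replicate 3 (0.17 to 0.22). In HT-29 HADHA stood at 171, 174 and 183 CPM in control, 186, 184 and 186 CPM under CoCl2 (0.07 ± 0.05, adjusted p = 0.13; -0.56 and past the threshold with library size scaling) and 145, 146 and 149 CPM under OD, a 1.20-fold fall (-0.26 ± 0.05, adjusted p = 1.58e-05). The OD responses of the lines differed (-0.64 ± 0.09, adjusted p = 3.28e-07). HADHA overlaps HADHB, the gene of the beta subunit, head to head on the opposite strand.

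**Figure D4:**
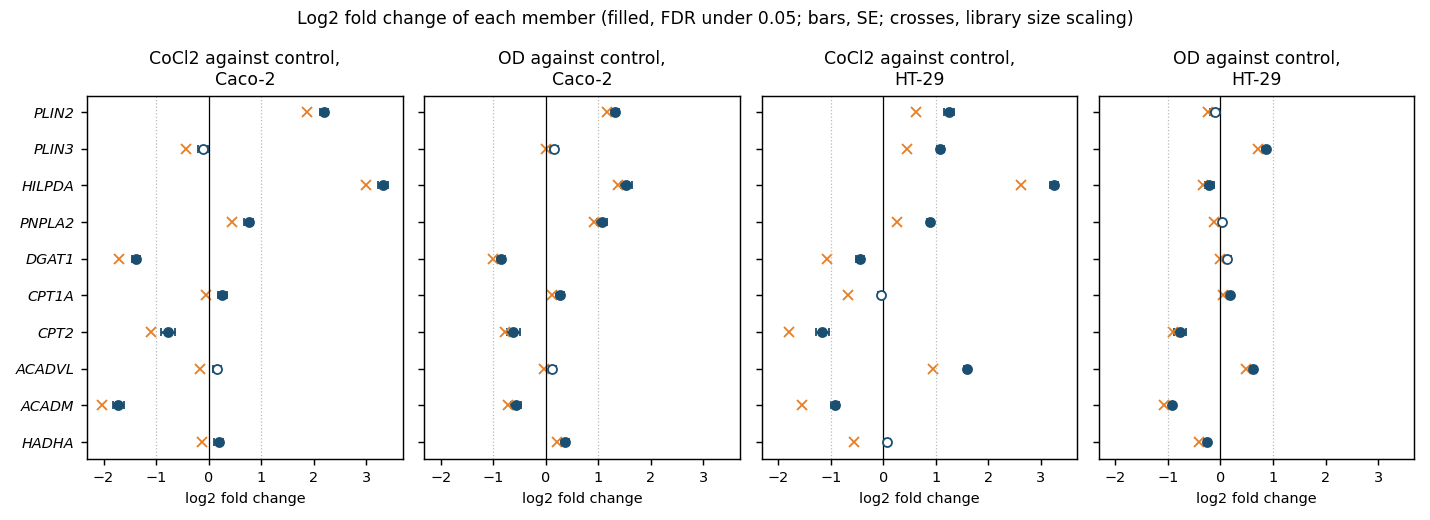
Log2 fold change against control of the 10 members (rows) in the 4 treatment comparisons (panels); circles are edgeR estimates with TMM scaling, filled at an adjusted p under 0.05, bars are standard errors, dotted lines mark a log2 of 1 either way and crosses are estimates with library size scaling. The crosses lie left of the circles in each of the 4 panels, farthest under CoCl2 in HT-29, where the median of all genes moved by -0.63.

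Counted over the members, CoCl2 raised 5 and lowered 3 of 10 in Caco-2, against 31.6% and 33.1% of the 16034 genes tested, and OD raised 5 and lowered 3, against 25.7% and 24.7%. In HT-29 CoCl2 raised 5 and lowered 3, against 40.7% and 42.2% of 15812 genes, and OD raised 3 and lowered 4, against 34.7% and 34.0%. With the added demand of a log2 change over 1, CoCl2 raised 2 members in Caco-2 (9.13% of genes) and lowered 2 (14.2%), and OD raised 3 (4.43%) and lowered 0 (7.27%). In HT-29 CoCl2 raised 4 (17.4%) and lowered 1 (23.9%), while OD raised 0 (9.50%) and lowered 0 (7.57%). Scaled by library size, the log2 over 1 counts became 1 raised and 3 lowered with CoCl2 in HT-29 (8.19% and 39.5% of genes), 2 and 3 with CoCl2 in Caco-2 (5.43% and 22.1%), 2 and 1 with OD in Caco-2 (3.12% and 10.3%), and 0 and 1 with OD in HT-29 (7.75% and 10.1%). In the main counts with a log2 over 1, the members stood farthest above the background for OD in Caco-2 (3 raised: PLIN2, HILPDA and PNPLA2) and for CoCl2 in HT-29 (4 raised: PLIN2, PLIN3, HILPDA and ACADVL). These shares were not tested, and the members are 10 genes picked with earlier results known. The median log2 change of the members was 0.17, 0.21, 0.48 and -0.04 in the 4 comparisons in the order given, against -0.03, -0.02, -0.03 and 0.01 for all genes.

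Set directly against each other, at 300 µM and 5 µM, CoCl2 gave higher levels than OD for 2 members in Caco-2 (24.4% of genes tested) and lower levels for 4 (25.2%). PLIN2 (0.89 ± 0.07) and HILPDA (1.80 ± 0.09) were higher under CoCl2, whereas ACADM (-1.15 ± 0.11), DGAT1 (-0.52 ± 0.08), PNPLA2 (-0.31 ± 0.09) and PLIN3 (-0.26 ± 0.09) were lower, the last not without Caco-2 CoCl2 replicate 3. CPT1A, CPT2, ACADVL and HADHA did not pass, with a 95% interval of -0.16 to 0.16 for CPT1A and -0.43 to 0.12 for CPT2. HADHA (-0.17) did pass with library size scaling (-0.34), with no filter (-0.20), with both lines in 1 fit (-0.17) and without OD replicate 3. In HT-29 CoCl2 gave higher levels for 6 members (37.1%) and lower levels for 3 (40.6%). HILPDA was 11-fold higher than under OD (3.46 ± 0.07), PLIN2 2.55-fold (1.35 ± 0.10), ACADVL 1.96-fold (0.97 ± 0.05) and PNPLA2 1.83-fold (0.87 ± 0.05). HADHA (0.33 ± 0.05) and PLIN3 (0.23 ± 0.06) were also higher but turned to -0.16 and -0.27 with library size scaling. PLIN3 was no longer past the threshold with both lines in 1 fit (0.14, adjusted p = 0.125, edgeR). DGAT1 (-0.57 ± 0.07), CPT2 (-0.39 ± 0.13) and CPT1A (-0.23 ± 0.05) were lower, and the call of CPT2 rested on HT-29 CoCl2 replicate 2 (-0.19 without it). ACADM did not differ past the threshold (0.02 ± 0.07, interval -0.13 to 0.16), though it was lower and past it with library size scaling (-0.48, adjusted p = 9.13e-07, edgeR).

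Tested as a difference between the lines, the signed log2 fold change with CoCl2 was higher in HT-29 for 4 members (21.1% of 17921 genes). It was lower for 4 (28.6%). For OD it was higher for 3 (20.9%) and lower for 5 (22.0%). A higher value can be a smaller fall, as for DGAT1 and ACADM with CoCl2, and a lower value a larger fall, as for CPT2. HILPDA and PNPLA2 did not pass for CoCl2, and CPT1A and CPT2 did not pass for OD.

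The genes around the members were read in 9 lists of lipid metabolism, none of which holds a member, and are given by counts and medians. Of all genes tested, as above, 31.6% rose and 33.1% fell with CoCl2 in Caco-2 and 25.7% and 24.7% with OD, while in HT-29 40.7% and 42.2% did so with CoCl2 and 34.7% and 34.0% with OD. The median log2 change of all genes lay between -0.03 and 0.01 in these comparisons. A list count near those shares is no result about the list. Of 5 genes tested in the carnitine shuttle list, 5 fell and 0 rose with CoCl2 in each line. The median log2 change was -0.67 in Caco-2, the value of ACACB, and -1.15 in HT-29. The list includes ACACB, which is not part of the shuttle itself, and leaves out the members CPT1A and CPT2. SLC25A20, the carnitine carrier of the inner membrane, went from 42.3 ± 0.990 CPM in control Caco-2 cells to 18 ± 0.188 CPM (log2 fold change -1.23 ± 0.09, SE) and from 11.9 ± 1.20 to 4.61 ± 0.282 CPM in HT-29 (-1.39 ± 0.13), and fell with OD in both (-0.40 and -0.41). CRAT, carnitine acetyltransferase, fell with CoCl2 in both lines (-0.71 and -1.15) rose with OD in HT-29 (0.48 ± 0.07) and stood at -0.12 with OD in Caco-2. ACACB, which makes the malonyl-CoA that inhibits CPT1A, fell in all 4 comparisons (-0.67, -0.23, -2.02 and -0.72 for CoCl2 and OD in Caco-2 and then HT-29). With OD, 4 fell and 0 rose in Caco-2 (median -0.40), and 2 rose and 2 fell in HT-29 (median -0.20).

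Of 14 mitochondrial beta-oxidation genes tested beside the members, 10 fell and 1 rose with CoCl2 in Caco-2 (median -0.53) and 9 fell and 3 rose in HT-29 (median -0.37). With OD 6 fell and 2 rose in Caco-2 (median -0.03), and 8 fell and 4 rose in HT-29 (median -0.19). ACADSB, the dehydrogenase for short branched chains, fell in all 4 comparisons (-1.10 and -1.38 in Caco-2, -1.08 and -1.07 in HT-29), as did ACAD9, which also helps assemble complex I (-0.74, -0.55, -1.22 and -0.51). ACAD10 fell in 3 of them (-1.44, -0.84 and -0.57) and stood at 0.01 with OD in HT-29. Of 11 peroxisomal genes, 8 fell and 1 rose with CoCl2 in Caco-2 (median -0.45), and 5 fell and 4 rose in HT-29 (median -0.21). With OD, 5 fell and 0 rose in Caco-2 (median -0.25), and 4 fell and 2 rose in HT-29 (median -0.09). EHHADH, the peroxisomal bifunctional enzyme, fell in all 4 (-1.72, -1.41, -2.81 and -1.19), and CROT, which attaches carnitine to shortened chains, did so too (-1.0, -0.45, -1.42 and -0.70).

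Of 14 genes of triglyceride and sterol ester synthesis tested in Caco-2, 5 rose and 8 fell with CoCl2 (median -0.39) and 4 rose and 6 fell with OD (median -0.04). Of 12 tested in HT-29, 6 rose and 4 fell with CoCl2 (median 0.31) and 7 rose and 1 fell with OD (median 0.34). GPAT3, an enzyme of the first step, rose in all 4 comparisons, from 13.5 ± 0.440 CPM to 51.6 ± 5.18 under CoCl2 and 32.2 ± 3.73 under OD in Caco-2, and from 16.6 ± 2.26 to 160 ± 5.08 and 44.1 ± 4.12 in HT-29. LPIN1, a phosphatidate phosphatase, rose in all 4 too, in HT-29 by 3.83 ± 0.07 with CoCl2 and 2.24 ± 0.07 under OD on the log2 scale, against 0.59 and 0.54 in Caco-2. DGAT2, the other enzyme of the last step beside DGAT1, fell with both agents in Caco-2 (-1.40 ± 0.07 and -0.94 ± 0.07) and with CoCl2 in HT-29 (-2.54 ± 0.13), and stood at 0.06 ± 0.09 with OD there.

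Of 8 triglyceride breakdown genes in Caco-2, and of 7 in HT-29, 4 fell and 2 rose with CoCl2 in Caco-2 (median -0.26) and 5 fell and 2 rose in HT-29 (median -0.79). With OD 3 rose and 1 fell in Caco-2 (median 0.12), and 3 rose and 3 fell in HT-29 (median 0.13). G0S2, the other small inhibitor of PNPLA2, fell with CoCl2 where HILPDA rose, from 35.5 ± 4.29 to 8.76 ± 1.94 CPM in Caco-2 (-2.03 ± 0.14, adjusted p = 4.84e-12, edgeR) and from 28.5 ± 1.92 to 7.26 ± 0.300 CPM in HT-29 (-1.98 ± 0.10, adjusted p = 1.91e-16). With OD it fell in HT-29 (-0.81 ± 0.08) and did not pass in Caco-2 (-0.17 ± 0.12). ABHD5, the activator, rose in all 4 comparisons (0.28 and 0.72 for CoCl2 and OD in Caco-2, then 1.76 and 0.21 for HT-29), with the first at -0.04 under library size scaling. LIPE, hormone-sensitive lipase, fell with CoCl2 in both lines (-0.50 ± 0.21 in Caco-2, -1.14 ± 0.11 in HT-29), stood at -0.20 with OD in Caco-2 and rose with OD in HT-29 (0.85 ± 0.08).

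Of the other lipid droplet genes, 12 tested in HT-29 and 10 in Caco-2, 4 rose and 3 fell with CoCl2 in Caco-2 (median 0.06) and 5 rose and 5 fell in HT-29 (median 0.34). With OD 5 rose and 1 fell (median 0.25), and 4 rose and 3 fell (median 0.03). PLIN4, a perilipin of large amphipathic repeats, went from 19.8 ± 0.933 to 2.59 ± 0.556 CPM with CoCl2 and to 35.4 ± 1.27 CPM with OD in HT-29 (-2.94 ± 0.12 and 0.83 ± 0.07), so that in that line PLIN2 and PLIN3 rose with CoCl2 as PLIN4 fell. In Caco-2 PLIN4 was low, at 3 to 22 counts, fell with CoCl2 (-1.82 ± 0.54) and stood at -0.02 ± 0.42 with OD. PLIN5, the perilipin of oxidative tissue, was low, with 1 to 39 counts in HT-29, and fell there with CoCl2 (-3.32 ± 0.44), standing at -0.55 with OD. METTL7A fell in all 4 comparisons (-1.65, -1.64, -3.04 and -2.20).

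Genes of fatty acid uptake and activation, 13 tested in each line, gave 4 rises and 7 falls with CoCl2 (median -0.68) and 4 rises and 2 falls with OD (median -0.17) in Caco-2. In HT-29 they gave 5 rises and 5 falls with CoCl2 (median 0.20) and 7 rises and 2 falls with OD (median 0.22). ACSL1, which activates long-chain fatty acids to their CoA form, turned its direction between the lines. In Caco-2 its control mean of 67.8 ± 2.12 CPM compared with 34.1 ± 0.611 under CoCl2 and 49.8 ± 2.44 under OD (-0.99 ± 0.08 and -0.45 ± 0.08). In HT-29 the means were 59.2 ± 1.30, 230 ± 3.68 and 160 ± 2.17 CPM in the same order (1.96 ± 0.05 and 1.43 ± 0.05). The difference between the lines was 2.84 ± 0.09 for CoCl2 (adjusted p = 3.78e-23, edgeR) and 1.86 ± 0.09 for OD (adjusted p = 3.74e-18). FABP5, an epidermal-type fatty acid binding protein, fell with both agents in Caco-2, at 2 to 35 counts (0.20 and -0.39, not past the threshold, in HT-29), and FABP6, of bile acid binding, fell with both in HT-29 (-1.63 and -0.97), at 5 to 46 counts.

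Of 6 transcriptional regulators of fatty acid oxidation in Caco-2, and of 7 in HT-29, 1 rose and 4 fell with CoCl2 in Caco-2 (median -0.31) and 4 rose and 3 fell in HT-29 (median 0.55). With OD 4 rose and 0 fell (median 0.33), and 6 rose and 0 fell (median 0.56). PPARD went from 33.6 ± 0.964 to 152 ± 6.05 CPM with CoCl2 in HT-29 (2.18 ± 0.06) and stood at -0.08 ± 0.10 in Caco-2, a difference of 2.15 ± 0.12 (adjusted p = 2.64e-16, edgeR). With OD it rose in HT-29 (0.56) and stood at 0.22 in Caco-2. PPARGC1B fell with CoCl2 in both lines (-0.48 and -0.99) and rose with OD in both (0.32 and 1.14). PPARGC1A rose with both agents in HT-29 (1.23 and 1.88), at 13 to 57 counts, and lay at 0 to 2 counts in Caco-2. Of 6 targets of the peroxisome proliferator-activated receptors tested in each line, 1 rose and 5 fell with CoCl2 in Caco-2 (median -0.96), and 1 rose and 4 fell in HT-29 (median -0.83). With OD 1 rose and 2 fell in each line (medians -0.05 and 0.08). ANGPTL4, also known as a hypoxia-responsive lipase inhibitor, was the one that rose, in all 4 comparisons (1.24, 0.85, 4.70 and 2.01), at 3 to 123 counts. UCP2 fell with CoCl2 in both lines (-1.17 and -2.04) and with OD in Caco-2 (-0.59), and stood at 0.09 with OD in HT-29.

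**Figure D5:**
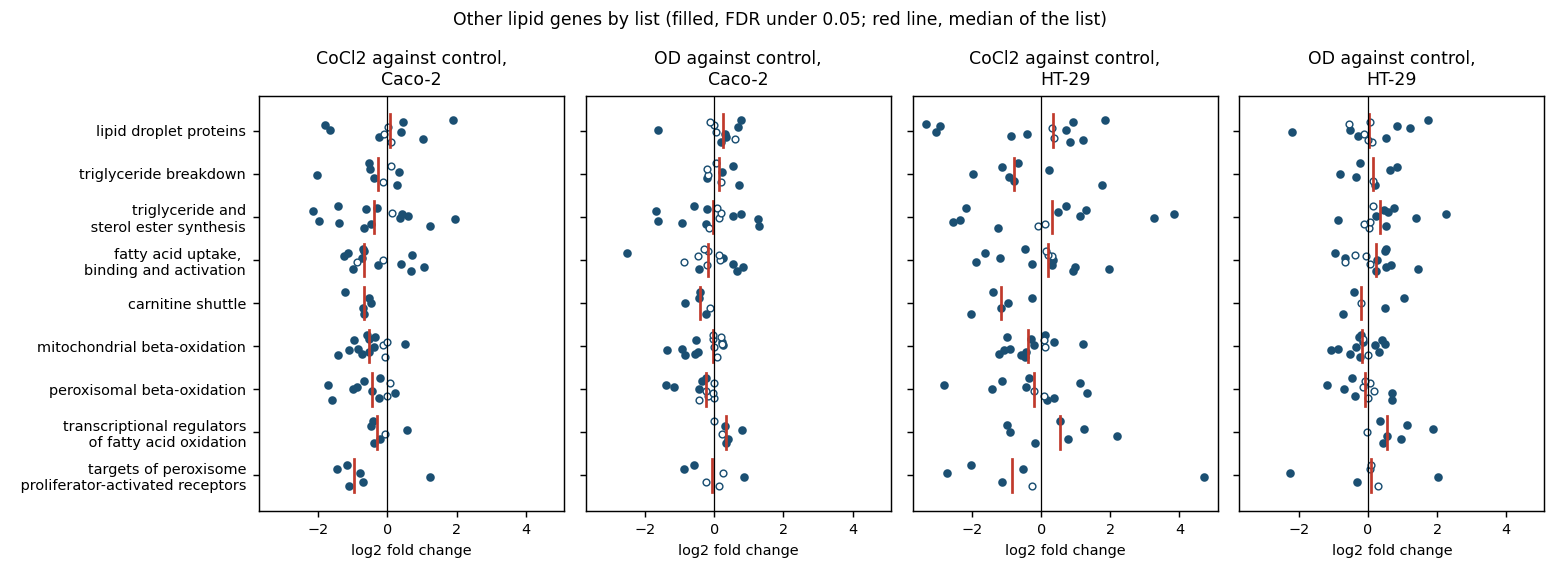
Log2 fold change against control (x) of the genes of 9 lipid lists (rows) in the 4 treatment comparisons (panels); each point is a gene, filled at an adjusted p under 0.05, and the red line is the median of the list. The carnitine shuttle row, which includes ACACB and leaves out CPT1A and CPT2, lies left of 0 in both CoCl2 panels, with medians of -0.67 and -1.15.

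For HILPDA, PLIN2 and CPT1A, the genes with the most similar pattern were looked for over the 18 libraries after centring each line, among 8239 genes of at least 10 CPM in both. The 18 points share 6 treatment groups, so these values describe the pattern only. HILPDA was most like PPME1 (r = 0.991), LNPK (r = 0.991) and NFRKB (r = 0.989). PLIN2 was most like RCOR1 (r = 0.981), YBX3 (r = 0.979) and CHMP4B (r = 0.977). CPT1A was most like ARHGEF2 (r = 0.931), PNKD (r = 0.931) and S100A6 (r = 0.920).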

How the data were processed

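The mRNA of 18 libraries was analysed, and the 18 miRNA libraries of the series were not used here. Per the labels and the study's methods, libraries were made with a stranded mRNA kit and read single-end, reads were checked with FastQC 0.11.9, trimmed with cutadapt 2.10 and aligned to GRCh38.p13 with STAR 2.7.5b, with genes counted against a GENCODE annotation. The counting tool and its use of strand are not given in the sources used here, so reads of overlapping genes may be shared. The authors deposited raw counts per gene, and log2 values, which recomputation showed to be log2 of RPKM plus 1 with TMM scaling within each line, for 13153 genes in Caco-2 and 12431 in HT-29, with all 10 members in both.

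Groups came from the labels. Each line was fitted alone over its 9 libraries with edgeR 4.0.16 in R 4.3.3 (limma 3.58.1, DESeq2 1.42.0 as alternatives): TMM scaling, filterByExpr, quasi-likelihood F test, two-sided, Benjamini-Hochberg adjustment over all genes tested. A gene "rose" or "fell" at an adjusted p under 0.05, and counts with a log2 change over 1 used the thresholds the study states. The study's methods name DESeq2, which is given as an alternative. The differences between lines came from 1 fit over all 18 libraries, with its own scaling, so they can depart slightly from the difference of the values given per line. SE is the log2 fold change over the root of F. Totals of 12925719 to 22332639 counts gave a median SE of a log2 change over all genes of 0.0855 to 0.195, depending on the comparison. Log2 ratios of 2 members used counts plus 0.5 and exact permutation tests. No pair of replicates agreed within sampling noise.

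The members and lists were chosen with earlier results of these data known. All members were named, and of each list up to 3 genes with the largest log2 change at an adjusted p under 0.05 and a mean of at least 10 counts in any of the 4 treatment comparisons. Some genes that this rule names are not reported here. Gene spans and overlaps are from GENCODE v44 on GRCh38, start windows from RefSeq on GRCh38.p14. The scripts were tested on simulated data. Alternatives were library size or DESeq2 scaling, DESeq2, no filter, limma on the log2 values, both lines in 1 fit, a replicate block and leaving out each library.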

Additional observations from a re-analysis of the deposited data

Results flagged for a closer look

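The responses of the members were compared between HT-29 and Caco-2 in 1 edgeR fit, and those that differed at an adjusted p under 0.05 are given here as the log2 fold change in HT-29 less that in Caco-2. Line and culture state cannot be told apart in any of them. For CoCl2 the difference was 1.32 for ACADVL, 1.09 for PLIN3, 0.83 for DGAT1 and 0.70 for ACADM. It was -1.05 for PLIN2, -0.48 for CPT2, -0.41 for CPT1A and -0.22 for HADHA. Of these, CPT2 was no longer past the threshold on leaving out any of 4 libraries (Caco-2 control replicate 1 or CoCl2 replicate 1, HT-29 control replicate 2 or CoCl2 replicate 2; -0.66 to -0.29 over the 18 left out). HADHA was no longer past it on leaving out any of 6 (Caco-2 control replicate 1 or 3 or CoCl2 replicate 3, HT-29 control replicate 3 or CoCl2 replicate 1 or 2; -0.26 to -0.19). With DESeq2 scaling CPT2 stood at -0.38 and HADHA at -0.12, neither past the threshold.

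For OD the difference was 0.97 for DGAT1, 0.69 for PLIN3 and 0.48 for ACADVL. It was -1.76 for HILPDA, -1.43 for PLIN2, -1.07 for PNPLA2, -0.64 for HADHA and -0.38 for ACADM. Under OD the hypoxia markers differed too, with 7 of 8 giving a smaller response in HT-29 and 1 a larger one (median difference -1.09, against 0.01 for all genes). Its part in the member differences was not tested. The 3 libraries of a group are too few for a test of single outlying libraries.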

How the results depend on the processing

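The alternatives were compared with the counts of members and the log2 fold change of each member in the 9 comparisons. Library size scaling changed the most: with it CoCl2 raised 3 members in Caco-2 in place of 5 and lowered 5 in HT-29 in place of 3. It turned the sign of CPT1A (-0.06), ACADVL (-0.16) and HADHA (-0.13) for CoCl2 in Caco-2, of PLIN3 (0 after rounding) and ACADVL (-0.03) for OD in Caco-2, of HADHA (-0.56) for CoCl2 in HT-29, of PNPLA2 (-0.12) and DGAT1 (-0.01) for OD in HT-29, of ACADVL (-0.13) for CoCl2 against OD in Caco-2, of PLIN3 (-0.27), ACADM (-0.48) and HADHA (-0.16) for CoCl2 against OD in HT-29, and of PNPLA2 (-0.18) in the CoCl2 difference between lines. These shifts follow the move of the median of all genes. The other sign changes were of values near 0: HADHA for CoCl2 in HT-29 with limma on the log2 values (-0.01) and with both lines in 1 fit (-0.03), PNPLA2 for OD in HT-29 with DESeq2 scaling, DESeq2 and limma (0 in each), CPT1A for CoCl2 against OD in Caco-2 with DESeq2 scaling and DESeq2 (0.01), and ACADM for CoCl2 against OD in HT-29 with no filter (-0.04), limma (-0.04) and both lines in 1 fit (-0.08). Leaving out a library turned the sign of 3 values that did not pass: CPT1A for CoCl2 against OD in Caco-2 (-0.05 to 0.06), ACADM for the same in HT-29 (-0.05 to 0.06) and PNPLA2 in the CoCl2 difference between lines (-0.04 to 0.14). PLIN2, HILPDA, DGAT1, CPT2 and ACADM kept their direction and their side of the threshold against control in both lines under each alternative run, apart from HILPDA and DGAT1 for OD in HT-29.

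Replicate numbers recur across groups, but same-numbered libraries did not deviate together (r of -0.055 to 0.068 in Caco-2 and -0.037 to 0.025 in HT-29). These values cannot show whether same-numbered cultures were set up together, which the labels do not say. The main fits did not pair the samples. With the replicate block, the one call that changed was that of HADHA in the CoCl2 difference between lines (-0.22, adjusted p = 0.0507 with edgeR). The block was not run for the control groups of the lines, where it could not be fitted, and limma was run within a line only. Depth bears most on CPT2, which had 85 to 457 counts in a library, the lowest count of the members among them.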
